A study of Homo sapiens with 6 samples.

Results

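The 8 genes described here encode the proteins that bind or assemble H/ACA small nucleolar RNAs (snoRNAs), the class to which SNORA28 belongs. They were chosen by name from knowledge of the particle, by a rule that holds no measured value though earlier results of these data were known, and all 8 were found among the 60612 genes listed for each library. DKC1, NHP2, NOP10 and GAR1 form the core of the mature particle, NAF1 and SHQ1 are assembly factors, and RUVBL1 and RUVBL2 are ATPases that act during assembly. Their mRNA was measured by RNA sequencing in HCT116, an established human colorectal carcinoma cell line. LV-NC cells (3 libraries) had been infected with a negative control lentivirus, and LV-SNORA28 cells (3 libraries) with a lentivirus that overexpresses SNORA28. Both groups therefore carried a lentivirus, and no uninfected cells were compared. Nothing in the labels says that the libraries of a group came from separate cultures, so p-values measure only the spread between these libraries, which may be technical.

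An H/ACA snoRNA folds into hairpins joined by a hinge, the box H, and ends in a box ACA. The core proteins assemble on it, and the RNA then guides dyskerin, the product of DKC1, to the uridines of ribosomal and spliceosomal RNA that it converts to pseudouridine. Telomerase RNA carries the same domain and binds the same proteins. Before the particle is mature, SHQ1 holds dyskerin and NAF1 takes the place that GAR1 later fills.

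The snoRNA sequences printed here are marked for the letters of box H and box ACA. SNORA28 (ENSG00000272533; GRCh38, chr14:103337849-103337974, plus strand) lies in an intron of EIF5. SNORA36A (chrX:154768528-154768659, plus strand) and SNORA56 (chrX:154774998-154775126, plus strand) lie within DKC1 itself. The sequences are those of GENCODE release 44, given 5′ to 3′. Capitals mark the last ACA and each match to ANANNA, the letters of box H, between 40% and 60% of the length, on the transcribed strand only.
SNORA28: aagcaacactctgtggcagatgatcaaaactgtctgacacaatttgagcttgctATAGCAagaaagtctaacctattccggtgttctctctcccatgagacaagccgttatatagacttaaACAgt
SNORA36A: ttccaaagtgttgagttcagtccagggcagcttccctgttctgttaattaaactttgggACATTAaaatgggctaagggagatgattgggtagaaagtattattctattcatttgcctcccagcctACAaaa
SNORA56: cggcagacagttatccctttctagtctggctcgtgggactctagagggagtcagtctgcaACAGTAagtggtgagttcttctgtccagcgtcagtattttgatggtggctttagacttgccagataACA
Each held 1 match to ANANNA in that stretch, and the last ACA was followed by 2, 3 and 0 annotated bases in SNORA28, SNORA36A and SNORA56. A match describes the letters and does not show that a protein was bound there.

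Values are FPKM, fragments per kilobase of transcript scaled to the mapped total of the library, which can be compared between genes. The libraries summed to between 306048 and 374676 FPKM, and the read depth behind these sums is unknown. The 37 genes of the mitochondrial genome took 42.7% to 47.7% of the sum in LV-NC and 35.9% to 38.3% in LV-SNORA28. The part of that shift in the values below was not tested beyond scaling to the nuclear FPKM sum, given for NAF1, RUVBL2 and the core sum. The epithelial markers EPCAM (96.86 to 115.21 FPKM), KRT8 and KRT18 were abundant, and CDH1 was lower at 9.65 to 14.38 FPKM. PTPRC and PECAM1 stayed at or below 0.08 FPKM, and the fibroblast marker COL1A1 was listed at 3.16 to 4.46 FPKM. SNORA28 itself measured 0.92, 0 and 0.64 FPKM in the LV-NC replicates, against 15.01, 13.66 and 15.2 FPKM in those of LV-SNORA28, in the order the labels give. The libraries were poly(A)-selected, and whether these reads came from the mature snoRNA was not tested. The 2 snoRNAs inside DKC1 were close to 0 in these poly(A)-selected libraries, at 0.01 to 0.21 FPKM for SNORA36A and at 0 to 0.02 FPKM for SNORA56.

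Of the 8 members, NAF1 alone was called higher in LV-SNORA28, by about 1.6 times in FPKM, and none was called lower. A gene was called changed at a limma adjusted p below 0.05 over the 12076 genes tested, those with a mean of at least 1 FPKM. All 8 members passed this filter on their level. The call of 1 member (12.5%) stands against 8.91% of all genes tested in either direction and 6.81% called higher, so the count is close to the background of this comparison. Before adjustment, 2 members (25%) had a p below 0.05 in limma, namely NAF1 and RUVBL2, against 28.0% of all genes tested. The groups did not overlap in 3 members (37.5%), which were GAR1, NAF1 and RUVBL2, against 27.0% of all genes tested with LV-SNORA28 above LV-NC. All 8 fitted changes were above 0 on the log2(FPKM + 1) scale, as were 66.7% of all genes tested, but that of RUVBL1 fell just below 0 under quantile normalization. The median log2 fold change of the 8 was 0.16, and that of all genes tested was 0.09.

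**Figure D1:**
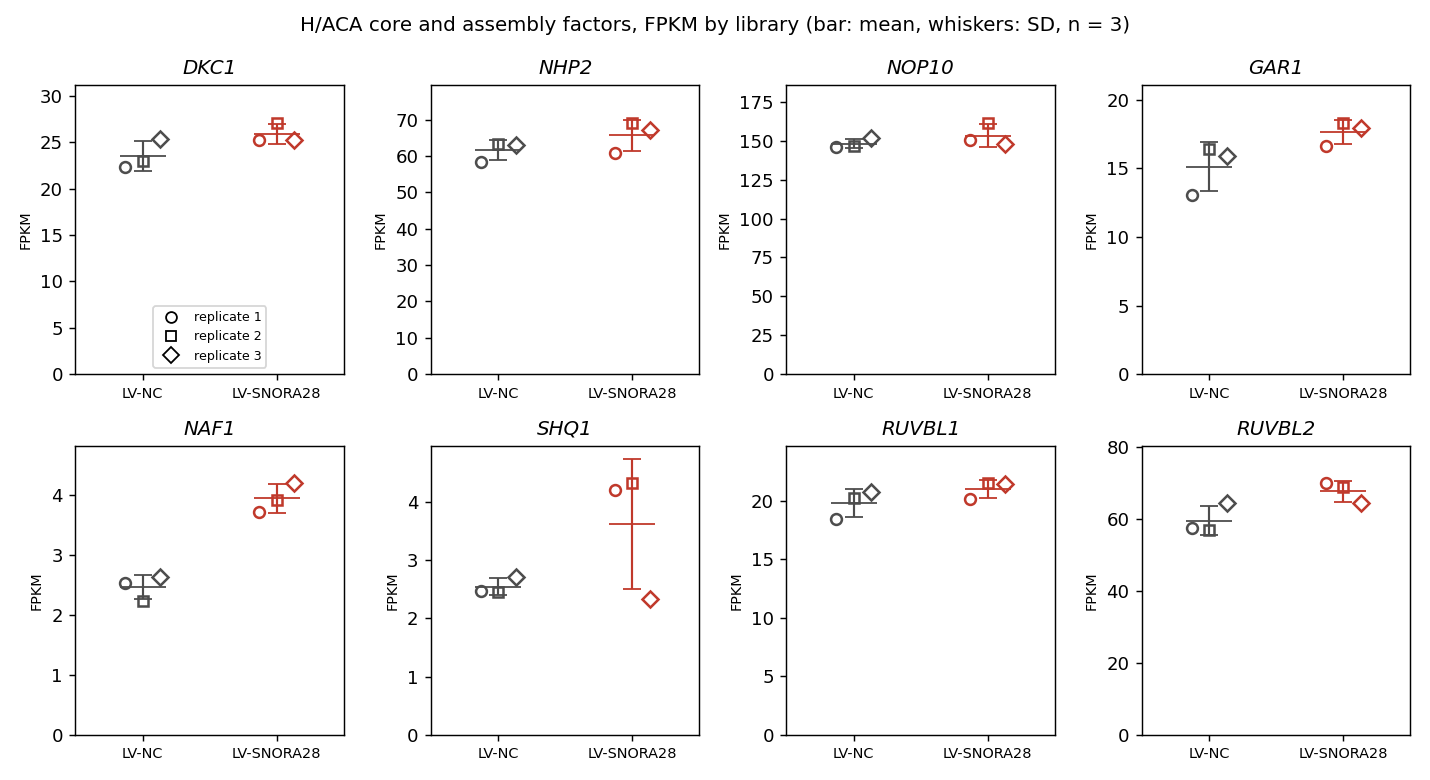
FPKM (vertical axes, from 0) of the 8 members in each of the 6 libraries, with the mean and SD of 3 libraries per group. NAF1 lies at 2.24 to 2.63 FPKM in LV-NC and at 3.72 to 4.2 FPKM in LV-SNORA28. SHQ1 is split within LV-SNORA28, and of the core genes only GAR1 has groups that do not overlap.

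The members spanned a wide range of levels. NOP10 was the most abundant, followed by NHP2 and RUVBL2, then DKC1, RUVBL1 and GAR1, with NAF1 and SHQ1 far below. Most neighbours in this order kept it in 6 of 6 libraries. NHP2 exceeded RUVBL2 in only 4 of 6, with a ratio from 0.873 to 1.12, and NAF1 exceeded SHQ1 in only 2 of 6, with a ratio from 0.884 to 1.79, so neither pair could be ordered. GAR1 exceeded its counterpart NAF1 by 4.28 to 7.32 times. In mean level NOP10 stood at or above 98.5% of the genes tested, NAF1 at or above 32.9% and SHQ1 at or above 31.5%.

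The core proteins came first in the comparison. DKC1 (ENSG00000130826; GRCh38 chromosome X, 154762742 to 154777689), the pseudouridine synthase itself, measured 22.36, 22.95 and 25.34 FPKM in the LV-NC replicates, against 25.29, 27.14 and 25.27 FPKM in those of LV-SNORA28. The groups overlapped at their edge, since the highest LV-NC library lay just above the lowest LV-SNORA28 libraries. In limma the log2 change came to 0.13 (SE 0.07, 95% interval -0.03 to 0.30, adjusted p 0.268).

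NHP2 (ENSG00000145912; chromosome 5, 178149463 to 178153894), which binds the RNA hairpin, measured 58.42, 63.4 and 63.02 FPKM in the LV-NC replicates, against 60.95, 69.18 and 67.11 FPKM in those of LV-SNORA28. Its groups overlapped, with LV-SNORA28 replicate 1 inside the LV-NC range. In limma the log2 change came to 0.09 (SE 0.07, 95% interval -0.08 to 0.26, adjusted p 0.446). NOP10 (ENSG00000182117; chromosome 15, 34339159 to 34343180), a very small protein that links dyskerin to NHP2, measured 146.13, 146.72 and 151.52 FPKM in the LV-NC replicates, against 150.63, 161.62 and 147.74 FPKM in those of LV-SNORA28. Only LV-SNORA28 replicate 2 exceeded all LV-NC libraries. In limma its log2 change came to 0.05 (SE 0.06, 95% interval -0.09 to 0.19, adjusted p 0.629), the smallest change among the members.

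GAR1 (ENSG00000109534; chromosome 4, 109815510 to 109824740), which joins last and completes the mature particle, measured 13.06, 16.39 and 15.9 FPKM in the LV-NC replicates, against 16.63, 18.33 and 17.96 FPKM in those of LV-SNORA28. No overlap was seen between the groups, but they were separated by less than the spread of LV-NC, where replicate 1 was low. The log2 fold change of 0.21 (SE 0.10, 95% interval -0.02 to 0.45) did not pass, with an adjusted p of 0.205 in limma.

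Together the 4 core mRNAs summed to 248 ± 7.96 FPKM (SD, n = 3) in the control group, against 263 ± 12.0 FPKM (SD, n = 3) in LV-SNORA28, with overlapping groups. The ratio of these means was 1.06, and 1.04 after scaling to the nuclear FPKM sum. The make-up of that sum was also alike in the libraries. NOP10 gave 57.2% to 60.9% of it, NHP2 24.0% to 26.0%, DKC1 9.20% to 9.98% and GAR1 5.44% to 6.96%, and the groups overlapped for each. The intervals above reach 1.36 times for GAR1 and 1.23 times for DKC1 on the FPKM + 1 scale, so the data do not show that core levels were the same.

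NAF1 (ENSG00000145414; GRCh38 chromosome 4, 163110073 to 163166890, minus strand) is the factor that stabilises newly made H/ACA snoRNAs before GAR1 takes its place. It measured 2.54, 2.24 and 2.63 FPKM in the LV-NC replicates, against 3.72, 3.93 and 4.2 FPKM in those of LV-SNORA28. Every LV-SNORA28 library lay above every LV-NC library by more than the spread within either group. The means were 2.47 ± 0.204 FPKM (SD, n = 3) and 3.95 ± 0.241 FPKM (SD, n = 3), a ratio of 1.60. In such bulk libraries a larger share of cells with the mRNA and more of it per cell cannot be told apart. In limma the log2 change came to 0.51 (SE 0.08, 95% interval 0.32 to 0.71, adjusted p 0.0174), and NAF1 ranked 341 of 12076 genes by p. Among genes with a mean of 1 to 5 FPKM, where NAF1 lies, 5.79% were called in either direction.

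The call of NAF1 held in 4 of the 6 fits that left out 1 library. Its log2 fold change ranged only from 0.46 to 0.55 with 1 library left out, but its adjusted p in limma ran from 0.0417 to 0.0705. It was 0.0693 without LV-SNORA28 replicate 2 and 0.0705 without LV-SNORA28 replicate 3. Without a filter on low values, where 32761 genes were tested, it was 0.0504. Scaled to the nuclear FPKM sum, the log2 fold change of NAF1 was 0.49 with an adjusted p of 0.0240 in limma. By the study's own threshold, a fold change above 1.5 with an unadjusted p below 0.05, which 3.79% of all genes tested met, 0 of the 8 members passed in limma, against 2 at an unadjusted p below 0.05 alone. That count depended on the pseudocount. The fold change of NAF1 was 1.43 on the FPKM + 1 scale, but the ratio of its mean FPKM was 1.60, and with a pseudocount of 0.1 its fold change was 1.58 (log2 0.66). On that scale NAF1 passed the threshold of the study, as 1 of the 8 members, against 6.38% of all genes tested.

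**Figure D2:**
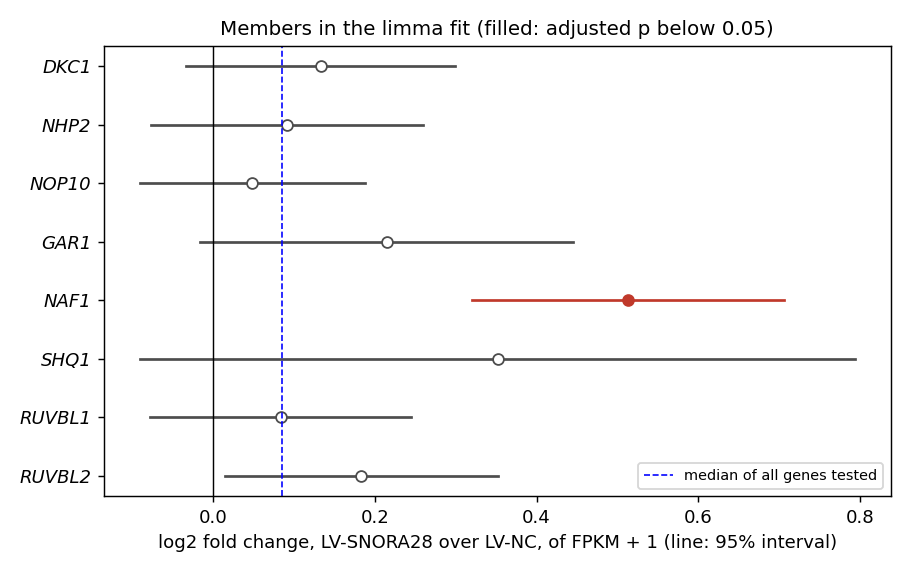
Log2 fold change of FPKM + 1 (horizontal axis) for each member, with its 95% interval from limma, and the median of all genes tested at 0.09 as a dashed line. The interval of NAF1, 0.32 to 0.71, lies above that median, while those of the other 7 members include it.

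SHQ1 (ENSG00000144736; chromosome 3, 72749277 to 72861914), the chaperone that holds dyskerin free of RNA until assembly, behaved differently between libraries of one group. It measured 2.47, 2.45 and 2.72 FPKM in the LV-NC replicates, against 4.21, 4.32 and 2.34 FPKM in those of LV-SNORA28. LV-SNORA28 replicates 1 and 2 stood well above LV-NC, whereas replicate 3 was the lowest of all 6 libraries. With all libraries the log2 fold change was 0.35 (SE 0.18, 95% interval -0.09 to 0.79) and the adjusted p was 0.269 in limma, so no difference beyond the spread was found. Without LV-SNORA28 replicate 3 it was 0.57 with an adjusted p of 0.0441 in limma. The LV-NC group was narrow by comparison, with an SD of 0.150 FPKM against 1.11 FPKM in LV-SNORA28 (n = 3 each).

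LV-SNORA28 replicate 3 had the lowest FPKM sum (306048) and the lowest mitochondrial share (35.9%) of the 6 libraries, and the highest NAF1 value. Within the pathway lists, SMN2 was likewise low in that library alone (8.19 FPKM, against 14.96 to 17.07 FPKM in the other 5), but SMN1 and SMN2 are near-identical copies whose reads may be divided between them. Their sum was 35.41 FPKM there and 37 to 41.85 FPKM elsewhere. LV-SNORA28 replicate 3 correlated with the others of its group at 0.977 to 0.979 over log2(FPKM + 1) of the genes tested. Among the LV-NC libraries this correlation was 0.972 to 0.977. The cause of the low SHQ1 value was not tested.

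**Figure D3:**
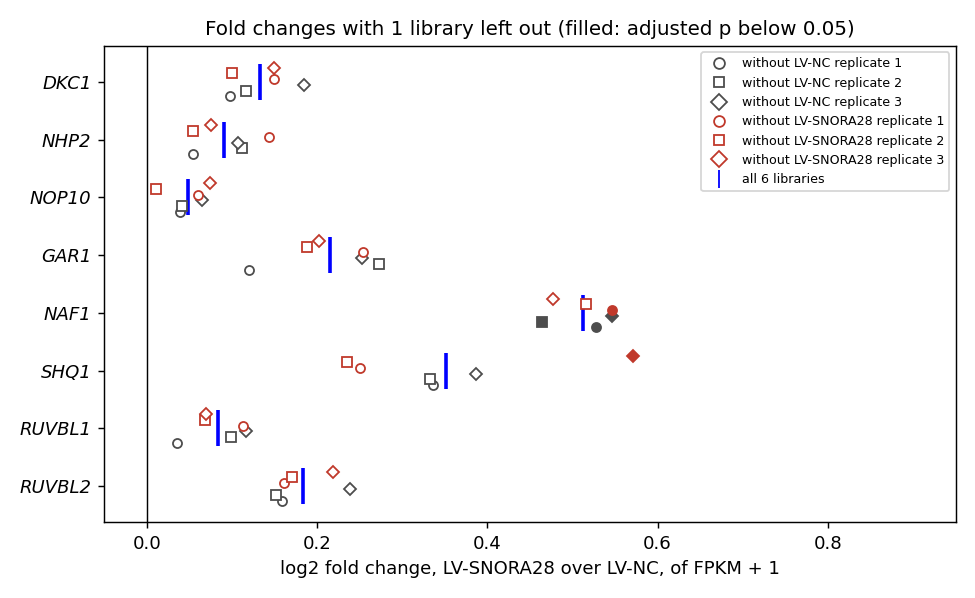
Log2 fold change of FPKM + 1 (horizontal axis) of each member with all 6 libraries (blue bars) and with each library left out in turn (symbols, filled where the limma adjusted p was below 0.05). NAF1 stays between 0.46 and 0.55, and SHQ1 moves from 0.23 to 0.57, its highest value being the one without LV-SNORA28 replicate 3.

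Ratios within a library do not depend on its scaling and set each assembly factor beside the protein it precedes or serves. The NAF1 to GAR1 ratio was 0.194, 0.137 and 0.165 in LV-NC and 0.224, 0.214 and 0.234 in LV-SNORA28. These did not overlap, and the means were 0.166 ± 0.0289 (SD, n = 3) and 0.224 ± 0.00973 (SD, n = 3). This ratio is a description without a test, and the difference between the changes of NAF1 and GAR1 was not tested. The SHQ1 to DKC1 ratio, computed after the values had been seen, was 0.110, 0.107 and 0.107 in LV-NC and 0.166, 0.159 and 0.0926 in LV-SNORA28, so its groups overlapped through replicate 3.

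**Figure D4:**
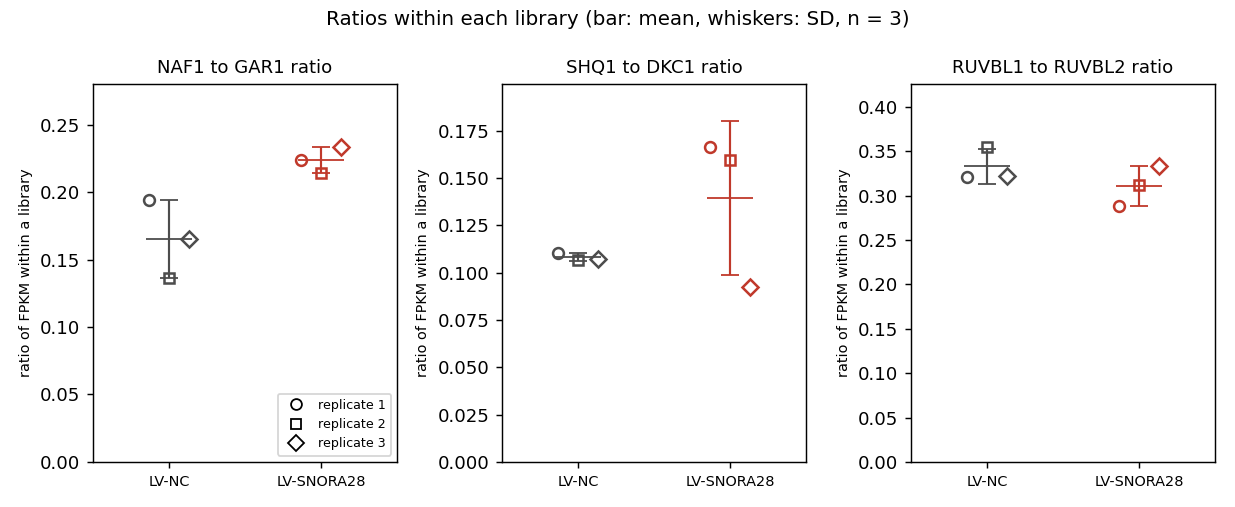
Ratios of FPKM within each library (vertical axes, from 0) for NAF1 to GAR1, SHQ1 to DKC1 and RUVBL1 to RUVBL2, with the mean and SD of 3 libraries per group. Only the NAF1 to GAR1 ratio separates the groups, at 0.137 to 0.194 in LV-NC and 0.214 to 0.234 in LV-SNORA28.

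RUVBL1 and RUVBL2 form a joint ring that works with the R2TP complex and HSP90 in particle assembly and is also shared by chromatin remodellers. RUVBL1 (ENSG00000175792; chromosome 3, 128064778 to 128153914) measured 18.43, 20.2 and 20.72 FPKM in the LV-NC replicates, against 20.12, 21.47 and 21.44 FPKM in those of LV-SNORA28. Its groups overlapped, and in limma the log2 change came to 0.08 (SE 0.07, 95% interval -0.08 to 0.25, adjusted p 0.466). RUVBL2 (ENSG00000183207; chromosome 19, 48993562 to 49015970) measured 57.38, 56.86 and 64.26 FPKM in the LV-NC replicates, against 69.8, 68.81 and 64.32 FPKM in those of LV-SNORA28. The groups of RUVBL2 were apart by only 0.06 FPKM, between replicates 3 of each. In limma its log2 change came to 0.18 (SE 0.07, 95% interval 0.01 to 0.35), which did not pass (limma adjusted p 0.150). Its unadjusted p in limma was 0.0372, and 0.0578 after scaling to the nuclear FPKM sum. The RUVBL1 to RUVBL2 ratio was 0.333 ± 0.0193 (SD, n = 3) in the control group and 0.311 ± 0.0226 (SD, n = 3) in LV-SNORA28, with overlapping groups.

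Genes that share sequence or position with the members were listed to show where reads could be misassigned. NHP2P1, a processed copy of NHP2, was listed at 0.13 to 0.89 FPKM, and NHP2P2, SHQ1P1 and RUVBL2P1 were at 0 in every library. RUVBL1 overlaps exons of SEC61A1 and EEFSEC on the opposite strand, and NHP2 those of RMND5B. SEC61A1, a subunit of the endoplasmic reticulum translocon, had 76.11 to 84.3 FPKM in LV-NC and 64.8 to 65.3 FPKM in LV-SNORA28 (log2 fold change -0.32, limma adjusted p 0.0286). The libraries were stranded, but whether strand was used in counting is not given in the sources used here, so the part of these neighbours in the RUVBL1 values was not tested. Annotated exons of DKC1 overlap SNORA36A, SNORA56 and MIR664B on the same strand, the last listed at 0.01 to 0.53 FPKM. No gene listed overlaps the exons of NAF1, SHQ1, GAR1 or NOP10.

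Profiles over the 6 libraries were then compared with that of DKC1, as the root-mean-square distance of mean-centred log2(FPKM + 1) values. The nearest of the genes tested were PSMD7 (0.0203), ASL (0.0222) and RNF2 (0.0240). Of the members, RUVBL2 ranked 128, RUVBL1 156, NOP10 257 and NHP2 359 in this order, GAR1 ranked 1965, and NAF1 and SHQ1 ranked 8480 and 9284. The distance is a description over 6 libraries that share their groups, and genes of small change lie close together in it.

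The promoters of the members were examined for shared letters. RefSeq windows on GRCh38.p14, of 250 bases before and 50 after a start, were found for 7 of the 8 genes, in 10 windows, and not for NAF1. CACGTG, the core of the E-box bound by MYC and related factors, was present in 2 of the 10 windows (GAR1 and NOP10) and in 7.26% of all 35116 windows. CCGGAA, the core bound by ETS factors, was present on either strand in 4 of the 10 (GAR1, NOP10, RUVBL2 and SHQ1) and in 17.2% of all windows. NOP10, the most abundant member, held each motif 2 times. Its 250 bases before the RefSeq start (chr15:34343137-34343386, minus strand, 5′ to 3′) are shown with CACGTG and CCGGAA, the latter here read as TTCCGG on the strand printed, in capitals, none of which overlap. The GENCODE gene begins further upstream, so the last 44 bases printed lie inside it.
NOP10 promoter: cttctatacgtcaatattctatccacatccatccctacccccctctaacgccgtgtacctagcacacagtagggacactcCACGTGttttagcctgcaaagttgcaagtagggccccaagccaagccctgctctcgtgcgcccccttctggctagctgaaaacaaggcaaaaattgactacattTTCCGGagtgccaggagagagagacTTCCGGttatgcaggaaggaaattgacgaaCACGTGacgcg
NOP10 and GAR1, the genes with CACGTG, did not pass the test of expression. A match is not a site of binding.

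Other genes of the pathway were taken from 5 lists compiled from general knowledge, 43 genes in all, of which 40 were tested. Of these 40, 1 was called, which was higher, and 4 had an unadjusted p below 0.05 in limma, against 8.91% and 28.0% of all genes tested. Their median log2 fold change was 0.09, as over all genes tested. The called gene was HSP90AA1, the inducible form of the HSP90 chaperone that works with R2TP. It measured 410.99, 442.9 and 399.13 FPKM in the LV-NC replicates, against 635, 728.04 and 693.56 FPKM in those of LV-SNORA28, far outside the spread of either group. In limma its log2 change came to 0.71 (SE 0.08, adjusted p 0.00634).

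The list of snoRNP chaperones had 7 of 8 genes tested, of which 1 was called and 3 had an unadjusted p below 0.05 in limma, with a median log2 fold change of 0.16. The groups did not overlap, with LV-SNORA28 above, in 4 of the 7, against 27.0% of all genes tested. In PIH1D1 they were apart with LV-SNORA28 below. Each of the other lists had 0 to 2 genes apart with LV-SNORA28 above. HSP90AB1, the constitutive form and most abundant gene of the list, had 1176.24 to 1402.06 FPKM in LV-NC and 1587.43 to 1654.35 FPKM in LV-SNORA28 (log2 fold change 0.33, limma adjusted p 0.0555). RPAP3 and PIH1D1, the scaffold subunits of R2TP, had log2 fold changes of 0.21 (limma adjusted p 0.137) and -0.08 (limma adjusted p 0.391). The box C/D core, which forms the other large class of snoRNP, had 0 of 4 genes called in limma and 0 at an unadjusted p below 0.05, with a median of -0.03. Its most abundant gene, the methyltransferase FBL, had 107 ± 3.84 FPKM (SD, n = 3) in the control group, against 115 ± 12.6 FPKM (SD, n = 3) in LV-SNORA28.

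Among telomerase and Cajal body genes, 0 of 6 tested were called in limma, and 0 had an unadjusted p below 0.05, where 8.91% and 28.0% of all genes tested did. These shares apply to each list, and in lists this short few or no calls are no result about the list. NOLC1, a nucleolar and Cajal body phosphoprotein that binds snoRNPs and the most abundant of them, had 70.05 to 102.95 FPKM in LV-NC and 66.91 to 76.77 FPKM in LV-SNORA28, with overlapping groups. TERT, the catalytic subunit of telomerase, was below the filter at 0.71 to 0.93 FPKM. TERC, the telomerase RNA, was listed at 0.1 FPKM or less in these poly(A)-selected libraries, which may not capture it. Of the 9 genes for snoRNA release and end processing, 0 were called in limma and 0 had an unadjusted p below 0.05, and the most abundant, the exonuclease XRN2, had a log2 fold change of 0.04. Of the 14 partners of RUVBL1 and RUVBL2 in chromatin remodelling and kinase assembly, 0 were called in limma and 1 had an unadjusted p below 0.05. Their median log2 fold change was 0.09, and the most abundant, the acetyltransferase KAT5, had a log2 fold change of 0.01 (limma adjusted p 0.971).

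**Figure D5:**
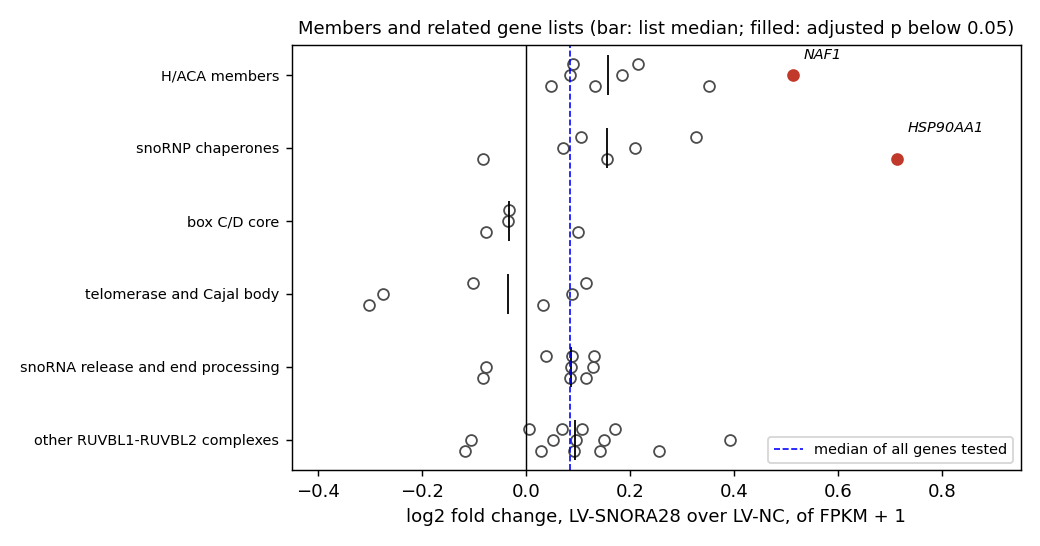
Log2 fold change of FPKM + 1 (horizontal axis) of each tested gene in the 8 members and the 5 related lists, with list medians as bars and the median of all genes tested as a dashed line. NAF1 at 0.51 and HSP90AA1 at 0.71 are the called genes, and the medians run from -0.03 to 0.16.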

How the data were processed

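Poly(A)-selected, dUTP-stranded, paired-end RNA sequencing was made from 6 HCT116 libraries. The authors deposited 1 table per library with gene-level FPKM values of 60612 Ensembl genes. The submitters' processing notes name cutadapt 1.9, HISAT2 2.2.1, StringTie 2.1.6, DESeq2, edgeR and hg38. The annotation release, the mapped totals and the use of strand are not given in the sources used here. FPKM is relative to all mapped fragments, so abundant transcripts shift every other value, and without counts no counting interval could be given. Symbols, coordinates and snoRNA sequences came from GENCODE release 44 (GRCh38), which held 60401 of the identifiers.

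Values were analysed as log2(FPKM + 1). The 12076 genes averaging 1 FPKM or more were fitted with limma 3.58.1 in R 4.3.3 (lmFit, eBayes with trend), with two-sided p-values adjusted by the Benjamini-Hochberg method over all genes tested. Fold changes on this scale understate those of low genes. The fit was tested on simulated data, with spreads drawn across genes regardless of level. Changes were simulated only in genes of higher mean level than NAF1 and SHQ1, so that test does not cover calls at their level. Groups came from the sample titles, and the labels give no batch. Named genes were the 8 members, SNORA28, called genes and the most abundant gene of each list, genes overlapping members, and the 3 profiles nearest DKC1. RPAP3, PIH1D1, SMN1, SMN2, TERT and TERC were named after their values were seen. The members and lists were chosen with earlier results of these data known. Alternatives were no trend, quantile normalization, scaling to the nuclear FPKM sum, other filters, a pseudocount of 0.1, a replicate block, the threshold of the study and each library left out. The pseudocount of 0.1 without a filter, and with the threshold of the study, was added after seeing the data. Tables were made in Python 3.11.15.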

Additional observations from a re-analysis of the deposited data

How the results depend on the processing

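Of the 110 values of single members under the alternatives, 105 kept their direction and their side of the threshold. NAF1 fell short of it in 3 (no filter, and without LV-SNORA28 replicate 2 or 3), SHQ1 came to pass it in 1 (without LV-SNORA28 replicate 3), and RUVBL1 turned to -0.0077 under quantile normalization, where the median of all genes was -0.0013. The count of members called went from 1 to 0 without a filter, to 0 at a minimum mean of 5 FPKM, where NAF1 and SHQ1 were not tested, and to 0 at the threshold of the study on FPKM + 1, and was 0 to 1 with 1 library left out. The snoRNP chaperones called went from 1 to 2 at a minimum mean of 5 FPKM. Among all genes, the 1076 calls became 397 without a filter, 466 with a pseudocount of 0.1 and no filter, 458 at the threshold of the study (771, with NAF1 the 1 member, at a pseudocount of 0.1), and 279 to 628 with 1 library left out (279 without LV-SNORA28 replicate 2). Quantile normalization changed 822 higher and 254 lower genes to 451 and 375. The cause was not tested, except that fewer samples or more genes enter some fits.

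The labels do not say whether libraries of the same replicate number were paired. After subtraction of the group means their correlations were -0.04, 0.09 and 0.0098 for numbers 1, 2 and 3. Correlations near 0 show no deviation shared over the genes tested as a whole. They do not cover single genes and cannot tell how the libraries were made. With the replicate block, 510 genes were called, 481 of them among the 1076, and NAF1 had a limma adjusted p of 0.0490 as the only member called. With no depth given, the precision of NAF1 and SHQ1, at a few FPKM, rests on the spread of 3 libraries.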
